A study of Mus musculus with 4 samples.

Results

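The genes described here are 10 components of the microRNA machinery, taken from RNA sequencing of cultured neonatal mouse cardiomyocytes that had been transfected with microRNA mimics. They are the Argonaute genes Ago1, Ago2, Ago3 and Ago4, the processing and export genes Dgcr8, Xpo5 and Dicer1, and the GW182 family genes Tnrc6a, Tnrc6b and Tnrc6c. They were picked by gene symbol among 27267 genes, and the files list the Argonautes under their older symbols Eif2c1 to Eif2c4. All 10 were found, in 11 transcript records out of 36065, and all 10 passed a minimum mean of 1 CPM (reads scaled to library size). Cardiomyocytes came from CD1 mice at postnatal day 1. Cultures received the human mimic hsa-miR-199a-3p, the human mimic hsa-miR-590-3p, the Caenorhabditis elegans mimic cel-miR-67 as a control, or transfection reagent with no mimic (mock). Mimics were delivered at 50 nM with a lipid reagent, cells being seeded onto the transfection mix, and RNA was collected after 72 h. Each condition had 1 library, and the labels do not say how many animals a culture was made from. Without replicates no difference has a replicate check, and no significance test was made.

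In the microRNA pathway, the nuclease Drosha and its RNA-binding partner DGCR8 release a hairpin from the primary transcript in the nucleus. Exportin 5, the product of Xpo5, carries the hairpin to the cytoplasm, where Dicer cuts it to a short duplex. A strand of the duplex is loaded into an Argonaute protein and guides it to messenger RNAs. GW182 proteins, made from the Tnrc6 genes, bind Argonaute and recruit the enzymes that remove poly(A) tails. A synthetic mimic resembles the product of Dicer, so it enters the pathway at Argonaute loading, without the nuclear steps. In mammals Argonaute2 is the member known for slicing a fully paired target.

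The mature microRNA that corresponds to the hsa-miR-199a-3p mimic is shown because its seed, bases 2 to 8, is the part that selects targets. The sequence is the mouse one from RefSeq (build GRCm38.p6), where it is encoded at chr1:162217883-162217904 on the plus strand and at chr9:21496498-21496519 on the minus strand. Capitals mark the seed. In that table only mmu-miR-199b-3p carries the same seed, and its mature sequence is identical.
mmu-miR-199a-3p: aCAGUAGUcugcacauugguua
For hsa-miR-590-3p and cel-miR-67 the names alone are given.

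The libraries held 38745528 (hsa-miR-199a-3p), 34452240 (hsa-miR-590-3p), 34255689 (cel-miR-67) and 31638930 (mock) reads assigned to transcripts. Reads were summed per gene and scaled to CPM with edgeR's TMM factors, which ranged between 0.960 and 1.04. All 7 cardiomyocyte markers examined, among them Myh6 and Tnnt2, were at or above 793 CPM in every library, so the labelled cell type was present. Their summed level was 32706 CPM with hsa-miR-199a-3p and 33153 CPM with hsa-miR-590-3p, against 43030 CPM with cel-miR-67 and 48181 CPM in mock. Myl2 did not follow the sum, with 3754 and 2707 CPM under these mimics, between 2607 CPM with cel-miR-67 and 3802 CPM in mock. The other cardiomyocyte markers lay below both controls under both human mimics. The 6 fibroblast markers summed to 8293 and 8056 CPM under the same mimics, against 6942 and 7233 CPM in the controls. Col1a1 and Col3a1 made up most of that sum, and other fibroblast markers lay the other way with hsa-miR-199a-3p, Postn having 146 CPM against 607 and 446 CPM, Pdgfra 63.8 CPM against 122 and 103 CPM and Dcn 56.0 CPM against 99.0 and 97.1 CPM. The 5 smooth muscle and pericyte markers summed to 5234 and 4038 CPM, against 4015 and 3319 CPM. Acta2 made up most of this sum, with 4591 and 3405 CPM against 3303 and 2694 CPM, while with hsa-miR-199a-3p Pdgfrb had 171 CPM against 228 and 188 CPM and Rgs5 1.07 CPM against 2.33 and 2.37 CPM. In sum, endothelial markers lay between 159 and 217 CPM and epicardial markers between 107 and 176 CPM over the libraries. The 4 macrophage markers did not exceed 6.22 CPM in sum, though none was at 0. The part of these marker shifts in the differences below was not tested, and in such bulk samples fewer cells of a type and less RNA per cell cannot be told apart.

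Of the 10 genes, Ago4 fell with hsa-miR-199a-3p. The criterion was a distance of 2-fold or more from each control, cel-miR-67 and mock, in the same direction. With hsa-miR-199a-3p, 1 of the 10 genes met this, Ago4, which was lower, where 4.74% of all 13502 measured genes met it, 2.34% being lower and 2.40% higher. Among the 11085 genes with a mean of 5 CPM or more, which include all 10, the shares were 3.63% and, for lower alone, 2.12%. With hsa-miR-590-3p none of the 10 met it, against a background of 0.585%, of which 0.356% were higher and 0.230% lower. At 5 CPM or more that background was 0.280%, and 0.117% for lower alone. Without a size limit, 4 of 10 lay above both controls with hsa-miR-199a-3p and 6 lay below, where 40.2% and 41.9% of all genes did so. Scaling by total counts, or the authors' RPKM, left 4 below, because Dicer1 and Tnrc6a then lay above mock. With hsa-miR-590-3p 4 lay above (Ago1, Ago4, Dgcr8 and Tnrc6a) and 3 below (Ago2, Ago3 and Tnrc6b), with 35.6% and 36.6% of all genes as background. On opposite sides of both controls under the human mimics were 4 of the 10, Ago1, Ago2, Ago4 and Tnrc6a, where 19.5% of all genes were. Nothing is read from these counts about the set. The median log2 ratio of the 10 genes with hsa-miR-199a-3p was -0.25 against cel-miR-67 and -0.10 against mock, where all measured genes had medians of 0.00 and -0.01. With hsa-miR-590-3p the medians were -0.02 and 0.11, against 0.00 and -0.01 for all genes. Pairs of ratios below refer to cel-miR-67 and then to mock. Their 95% intervals cover counting error only, because 1 library per condition gives no measure of spread between cultures. Copies made in amplification were not told apart from separate molecules, so even the counting error may be understated.

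**Figure D1:**
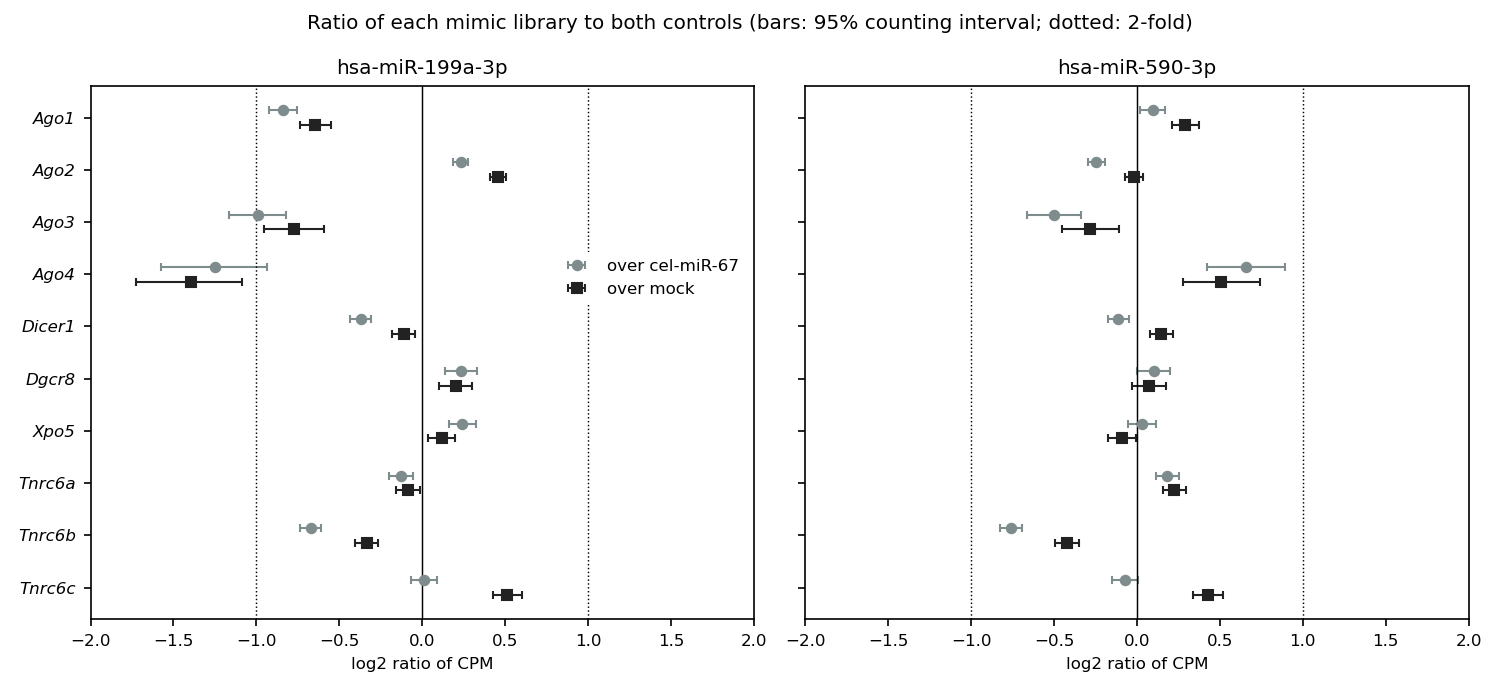
Log2 ratio of CPM (horizontal axis) of each of the 10 genes with hsa-miR-199a-3p (left) and hsa-miR-590-3p (right) over cel-miR-67 (circles) and over mock (squares), with 95% counting intervals; dotted lines mark 2-fold. Ago4 with hsa-miR-199a-3p is the only gene with both points beyond a dotted line.

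The Argonaute genes parted in the hsa-miR-199a-3p library: Ago2 stood above both controls, whereas Ago1, Ago3 and Ago4 stood below both. These directions held under all 6 other ways of scaling or counting that were tried for each ratio. Of the Argonaute genes, Ago2, which encodes the slicing member, had the most RNA in every library. Ago2 had 9076 reads (225 CPM) with hsa-miR-199a-3p and 5724 reads (162 CPM) with hsa-miR-590-3p, against 6419 reads (192 CPM) with cel-miR-67 and 4988 reads (164 CPM) in mock. Its level was highest in the hsa-miR-199a-3p library, while that of hsa-miR-590-3p was close to mock. The ratio with hsa-miR-199a-3p was 1.17-fold (interval 1.14 to 1.21) and 1.37-fold (1.33 to 1.42). The controls themselves differed by 1.17-fold (1.13 to 1.21), as much as the nearer of these ratios, and 28.8% of measured genes had a ratio to cel-miR-67 at least as high. With hsa-miR-590-3p the ratio to mock was 0.986-fold (0.95 to 1.02), a difference not detectable at this depth.

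Ago1 encodes a close relative of Argonaute2 that also binds microRNAs. It had 1796 reads (44.6 CPM) with hsa-miR-199a-3p and 3013 reads (85.2 CPM) with hsa-miR-590-3p, against 2669 (79.8 CPM) with cel-miR-67 and 2117 (69.7 CPM) in mock. The hsa-miR-199a-3p library stood apart from the other 3, which lay within a narrow range. Its log2 ratios were -0.84 and -0.64, or 0.559-fold (0.526 to 0.593) and 0.640-fold (0.601 to 0.682). Of all measured genes 5.75% were as low against cel-miR-67 and 10.3% against mock. With hsa-miR-590-3p Ago1 stood at 0.10 and 0.29, and the controls differed by 0.20.

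Ago3 was weakly expressed. Its reads numbered 444 (11.0 CPM) with hsa-miR-199a-3p and 548 (15.5 CPM) with hsa-miR-590-3p, against 733 (21.9 CPM) with cel-miR-67 and 573 (18.9 CPM) in mock. Both mimic libraries lay below both controls. Log2 ratios with hsa-miR-199a-3p were -0.99 and -0.77, just short of 2-fold against cel-miR-67, and with hsa-miR-590-3p they were -0.50 and -0.28.

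Ago4, the least abundant of the 10 genes, was the one that passed the criterion. It had 124 reads (3.08 CPM, interval 2.56 to 3.67) with hsa-miR-199a-3p and 408 reads (11.5 CPM, 10.4 to 12.7) with hsa-miR-590-3p, against 245 reads (7.33 CPM, 6.44 to 8.30) with cel-miR-67 and 247 reads (8.13 CPM, 7.15 to 9.21) in mock. The mimic libraries lay on opposite sides of the controls, which were close to each other. With hsa-miR-199a-3p the log2 ratios were -1.25 and -1.40, or 0.420-fold (0.336 to 0.524) and 0.379-fold (0.303 to 0.472). Only 1.78% and 1.32% of measured genes were as low. With hsa-miR-590-3p they were 0.65 and 0.51, or 1.58-fold (1.34 to 1.85) and 1.42-fold (1.21 to 1.67), short of 2-fold, with 5.38% and 6.75% of genes as high. All reads of Ago4 were placed uniquely.

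**Figure D2:**
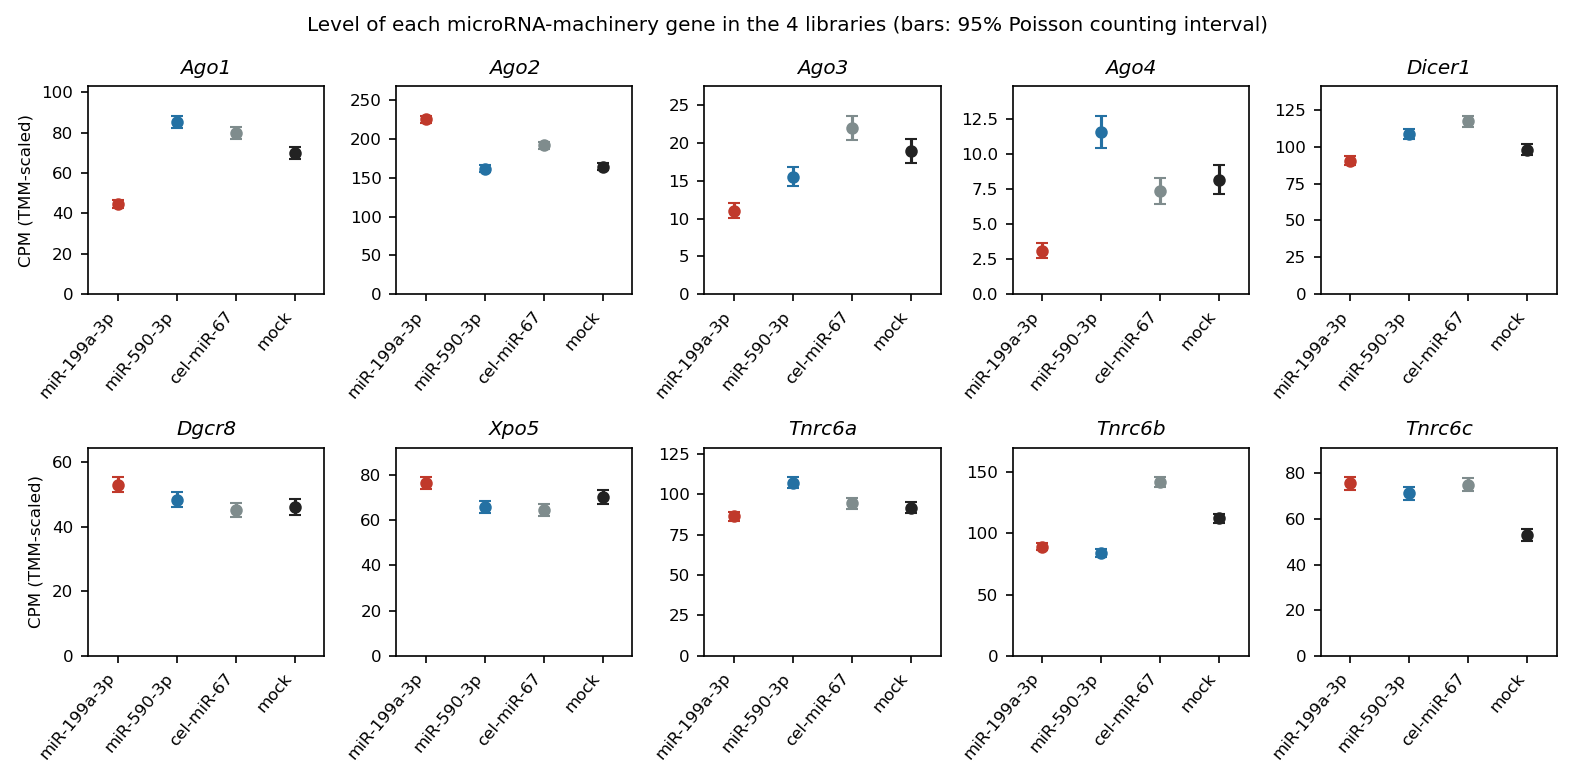
TMM-scaled CPM (vertical axes, each starting at 0) of the 10 genes in the 4 libraries, 1 point per library, with 95% Poisson counting intervals. Ago1, Ago3 and Ago4 are lowest and Ago2 is highest with hsa-miR-199a-3p. Tnrc6b, its records summed, is lower under both human mimics than in both controls. Its direction against mock with hsa-miR-199a-3p is uncertain.

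The make-up of the Argonaute family followed from these values and does not depend on how libraries are scaled. Per kilobase of the transcript record, Ago2 held 77.3% of the summed Argonaute level with hsa-miR-199a-3p and 56.0% with hsa-miR-590-3p, against 61.0% with cel-miR-67 and 60.1% in mock. The controls differed by less than 1 percentage point, while the mimics lay on either side of them. Ago1 held 17.4% and 33.5% under the same mimics, against 28.8% and 29.0% in the controls. The share of Ago3 was 3.98% and 5.64%, against 7.33% and 7.26%. Ago4 held 1.30% and 4.91%, against 2.86% and 3.66%. Within a library, Ago2 stood at 4.45 times Ago1 per length with hsa-miR-199a-3p (4.23 to 4.68) and 1.67 with hsa-miR-590-3p (1.60 to 1.75), against 2.12 (2.02 to 2.21) with cel-miR-67 and 2.07 (1.97 to 2.18) in mock. For Ago2 over Ago4 the ratio was 59.5 (49.8 to 71.6) and 11.4 (10.3 to 12.6), against 21.3 (18.7 to 24.3) and 16.4 (14.4 to 18.7). The summed level of the family varied little. It was 36.3 CPM per kilobase with hsa-miR-199a-3p and 36.0 with hsa-miR-590-3p, against 39.2 with cel-miR-67 and 34.0 in mock, so both mimics lay between the controls.

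**Figure D3:**
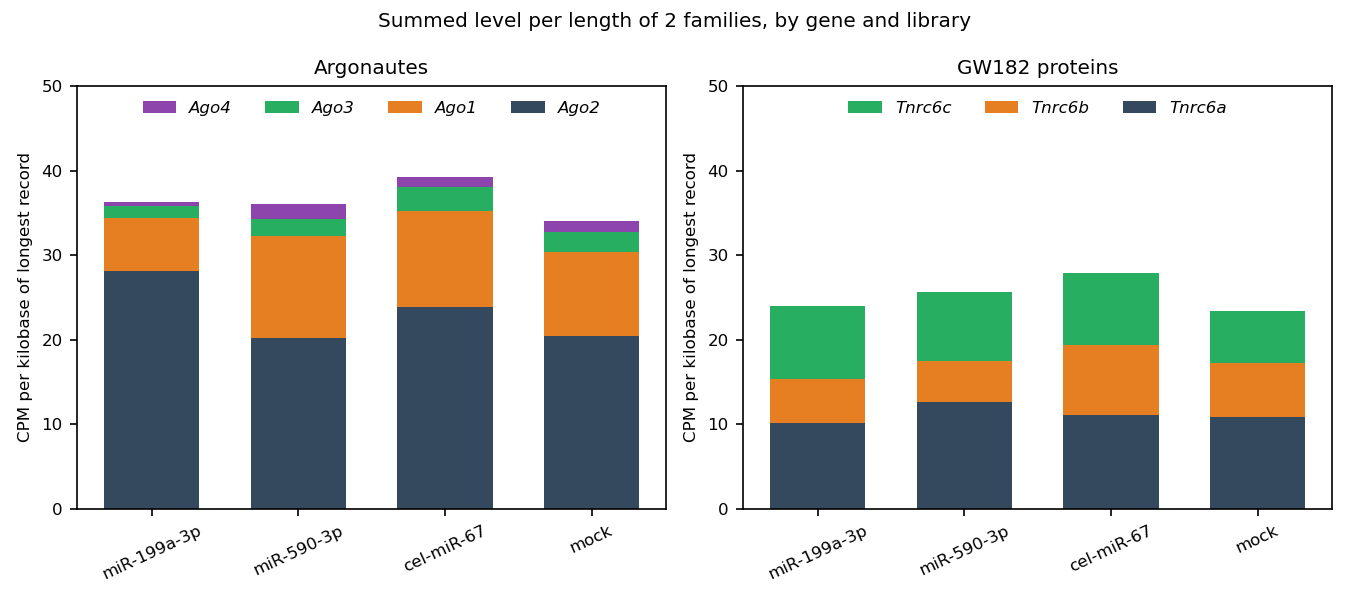
Level per length (CPM per kilobase of the longest record, vertical axis from 0) of the Argonaute genes (left) and GW182 genes (right), stacked by gene for each library. The Argonaute columns have similar heights, 34.0 to 39.2, while Ago2 takes 77.3% of the column with hsa-miR-199a-3p and 56.0% to 61.0% elsewhere.

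The 3 Argonaute genes that lay below both controls with hsa-miR-199a-3p are neighbours on chromosome 4, in the order Ago3, Ago1, Ago4 among protein-coding genes of the GRCm38.p6 table and on the same strand, whereas Ago2 is on chromosome 15. The genes flanking the group were not low. Clspn, which encodes the checkpoint adaptor claspin and follows Ago4, had 32.5 CPM with hsa-miR-199a-3p and 31.6 CPM with hsa-miR-590-3p, against 17.3 CPM with cel-miR-67 and 17.5 CPM in mock, log2 ratios of 0.91 and 0.89 with hsa-miR-199a-3p. Adprhl2 on the other side had 17.1 and 14.2 CPM, against 15.1 and 15.6 CPM, and Tekt2, next to Ago3, had at most 44 reads in any library. These neighbours were looked at after the Argonaute values had been seen.

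The promoters of the 3 neighbours are shown because these genes lay on the same side of both controls with hsa-miR-199a-3p. Each window of 300 bases spans the transcript start and is mostly upstream of it, 5′ to 3′ on the minus strand of chromosome 4, from RefSeq (GRCm38.p6), for Ago1 at the first listed of its starts. Capitals mark GC boxes (GGGCGG on either strand) and CCAAT boxes (CCAAT on either strand), and no base belonged to both kinds.
Ago1, chr4:126468582-126468881: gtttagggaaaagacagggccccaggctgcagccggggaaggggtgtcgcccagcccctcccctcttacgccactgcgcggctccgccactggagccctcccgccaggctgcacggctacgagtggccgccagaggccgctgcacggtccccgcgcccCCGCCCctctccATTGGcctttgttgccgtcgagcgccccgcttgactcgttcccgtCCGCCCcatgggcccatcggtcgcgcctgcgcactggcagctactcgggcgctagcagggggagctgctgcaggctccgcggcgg
Ago3, chr4:126429493-126429792: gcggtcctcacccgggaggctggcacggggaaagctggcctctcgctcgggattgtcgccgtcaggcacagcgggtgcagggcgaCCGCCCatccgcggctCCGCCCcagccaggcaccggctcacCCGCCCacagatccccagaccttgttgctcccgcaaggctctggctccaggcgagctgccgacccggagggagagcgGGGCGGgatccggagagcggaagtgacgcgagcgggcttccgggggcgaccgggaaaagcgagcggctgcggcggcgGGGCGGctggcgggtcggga
Ago4, chr4:126533409-126533708: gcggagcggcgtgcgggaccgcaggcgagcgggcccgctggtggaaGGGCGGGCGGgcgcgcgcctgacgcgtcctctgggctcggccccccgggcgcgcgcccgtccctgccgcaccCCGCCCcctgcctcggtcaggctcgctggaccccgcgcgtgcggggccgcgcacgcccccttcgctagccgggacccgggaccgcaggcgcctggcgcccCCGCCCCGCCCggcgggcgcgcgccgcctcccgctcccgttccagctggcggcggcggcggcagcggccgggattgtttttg
GC boxes numbered 2 in the Ago1 window, 5 in that of Ago3 and 5 in that of Ago4, and 35.7% of the 32851 promoter windows in the table held at least 1. Ago1 had 1 CCAAT box and the others none, against 37.4% of all windows with at least 1. All were rich in G and C, at 73.0% for Ago1, 74.7% for Ago3 and 83.3% for Ago4, where the median window had 52.7%. Of all windows 5.75% reached the value of Ago1, 4.17% that of Ago3 and 0.292% that of Ago4. No window was available for Ago2. The windows of the other 6 members in the table ranged more widely. Dicer1 had 77.3% G and C with 2 GC boxes and 1 CCAAT box. Dgcr8, on the other side of the controls, had 74.3% with 2 GC boxes and 4 CCAAT boxes. Xpo5 and Tnrc6c had 71.3% each, Xpo5 with 1 GC box and Tnrc6c with no box of either kind. Tnrc6b had 59.7% with 1 GC box and 4 CCAAT boxes. Tnrc6a, with 44.7% and no box of either kind, lay below the median window.

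For Ago4 the genes with the most similar pattern were sought among 9240 genes averaging 10 CPM or more, by distance over the 3 log2 ratios to mock. The nearest were Nacc1, a transcriptional regulator with a BTB domain, at a distance of 0.22, Pak4, a kinase of the cytoskeleton, at 0.23, and Pkhd1l1 at 0.29. Nacc1 had 1825 reads with hsa-miR-199a-3p and 5707 with hsa-miR-590-3p, against 4089 with cel-miR-67 and 3555 in mock. Its log2 ratios to mock were -1.37 and 0.46, close to the -1.40 and 0.51 of Ago4. With 4 libraries many genes can share such a pattern, and it is given as a description.

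Among the processing and export genes no value was far from the controls. Dgcr8 and Xpo5 lay above both controls with hsa-miR-199a-3p and Dicer1 lay below both, each by less than 1.3-fold. Dgcr8, the partner of Drosha, had 2133 reads (53.0 CPM) with hsa-miR-199a-3p and 1708 (48.3 CPM) with hsa-miR-590-3p, against 1508 (45.1 CPM) with cel-miR-67 and 1399 (46.0 CPM) in mock. The controls were nearly equal, and the hsa-miR-199a-3p library was 1.17-fold (1.10 to 1.26) and 1.15-fold (1.07 to 1.23) above them. A ratio as high was found for 28.7% and 30.1% of all genes, so this size of difference was common in that library. With hsa-miR-590-3p the intervals of both ratios included 1.

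Xpo5, the exporter of hairpins, had 3071 reads (76.3 CPM) with hsa-miR-199a-3p and 2329 (65.9 CPM) with hsa-miR-590-3p, against 2155 (64.4 CPM) with cel-miR-67 and 2135 (70.3 CPM) in mock. The hsa-miR-590-3p value lay between the controls. Ratios with hsa-miR-199a-3p were 1.18-fold (1.12 to 1.25) and 1.09-fold (1.03 to 1.15), where the controls differed by 0.917-fold (0.863 to 0.974).

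Dicer1, the enzyme that makes the duplex, had 3650 reads (90.6 CPM) with hsa-miR-199a-3p and 3833 (108 CPM) with hsa-miR-590-3p, against 3922 (117 CPM) with cel-miR-67 and 2976 (97.9 CPM) in mock. The spread between the controls, 1.20-fold, was larger than the distance of the hsa-miR-199a-3p library from mock, 0.925-fold (0.881 to 0.972), and with total counts or the authors' RPKM Dicer1 stood at 0.00 against mock on the log2 scale. Within a library, where scaling plays no part, Xpo5 stood at 2.23 times Dicer1 per length with hsa-miR-199a-3p (2.13 to 2.35) and 1.61 times with hsa-miR-590-3p (1.53 to 1.70), against 1.46 with cel-miR-67 (1.38 to 1.54) and 1.91 in mock (1.8 to 2.02).

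Per length, Ago2 was the most abundant of the 10 genes in all 4 libraries, with a mean of 23.1 CPM per kilobase, followed by Xpo5 with 18.7. Ago3 with 2.20 and Ago4 with 1.15 were the least abundant in every library. The other 6 genes had means of 6.16 to 11.4 CPM per kilobase, and their order changed between libraries.

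Among GW182 genes Tnrc6b was the member that lay below both controls under both human mimics. It had 3585 reads (89.0 CPM) with hsa-miR-199a-3p and 2966 (83.9 CPM) with hsa-miR-590-3p, against 4745 (142 CPM) with cel-miR-67 and 3413 (112 CPM) in mock. The mimic libraries were close to each other and the controls were apart by 1.26-fold (1.21 to 1.32). Log2 ratios were -0.67 and -0.34 with hsa-miR-199a-3p and -0.76 and -0.42 with hsa-miR-590-3p. Of all genes 1.78% were as low with hsa-miR-590-3p against cel-miR-67 and 6.64% against mock. Tnrc6b has 2 records in the files, transcript variants of 17334 and 17125 bases, and at most 1.58% of its reads were placed on a single record. The longer variant had 1171 and 1474 reads under the mimics, against 2145 and 1855 in the controls. The shorter variant had 2414 and 1492 reads, against 2600 and 1558. The shorter record taken alone, the more abundant in sum, stood at 0.23 against mock with hsa-miR-199a-3p, on 2414 reads against 1558, opposite in direction to the sum. Uniquely placed reads stood at -0.49 but numbered only 50 with hsa-miR-199a-3p, against 54 in mock, so the direction against mock with this mimic is uncertain.

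Tnrc6a had 3480 reads (86.4 CPM) with hsa-miR-199a-3p and 3786 (107 CPM) with hsa-miR-590-3p, against 3158 (94.4 CPM) with cel-miR-67 and 2784 (91.6 CPM) in mock. It lay below both controls under the first mimic, although not against mock when scaled by total counts (0.03 on the log2 scale) or by the authors' RPKM, and above both under the second, with ratios of 1.13-fold (1.08 to 1.19) and 1.17-fold (1.11 to 1.23). Tnrc6c had 3041 reads (75.5 CPM) and 2518 (71.2 CPM) under the same mimics, against 2506 (74.9 CPM) with cel-miR-67 and 1609 (53.0 CPM) in mock. Here the mock library stood alone: the 3 libraries that had received any mimic lay between 71.2 and 75.5 CPM. The ratio of hsa-miR-199a-3p to cel-miR-67 was 1.01-fold (0.956 to 1.06), not detectable at this depth, while that of cel-miR-67 to mock was 1.42-fold (1.33 to 1.51), the highest among the 10 genes for this pair. Of all measured genes 4.10% were as high in that comparison. Per length, Tnrc6a held 42.5% of the GW182 level with hsa-miR-199a-3p and 49.3% with hsa-miR-590-3p, against 39.9% with cel-miR-67 and 46.2% in mock. The share of Tnrc6b was 21.4% and 18.9%, against 29.4% and 27.8%. Tnrc6c held 36.1% and 31.8%, against 30.8% and 26.0%. All these shares rest in part on Tnrc6b reads, at most 1.58% of which were placed uniquely, so they are less certain.

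Set directly against each other, the human mimics differed at least 2-fold in 1 of the 10 genes, Ago4, where 4.58% of all genes did, 1.87% being higher and 2.71% lower. Ago4 with hsa-miR-199a-3p was 0.267-fold (0.216 to 0.327) of its level with hsa-miR-590-3p, a log2 ratio of -1.90, and 0.178% of measured genes were as low. Ago1 stood at -0.93, just short of 2-fold, Ago2 at 0.48 and Ago3 at -0.49. The other 6 genes lay between -0.31 and 0.21. The control mimic differed from mock by 2-fold or more in none of the 10 genes, against 1.98% of all genes (0.652% higher and 1.33% lower), and its log2 ratios ran from -0.15 for Ago4 to 0.50 for Tnrc6c with a median of 0.21, where all genes had a median of 0.00. Of the Argonautes, Ago1, Ago2 and Ago3 stood between 0.20 and 0.23 in the control mimic relative to mock.

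The remaining genes of the pathway were looked at through 9 lists with 94 genes, of which 83 passed 1 CPM. With hsa-miR-199a-3p 1 of the 83 was lower by the criterion and none higher, where 4.74% of all genes met it. Of the 83, 38 lay above and 31 below both controls, beside 40.2% and 41.9% of all genes, with median log2 ratios of 0.02 and 0.03. Counts for single lists below stand beside the same shares. With hsa-miR-590-3p none met the criterion, against 0.585% of all genes, and 32 lay above and 23 below both controls, beside 35.6% and 36.6% of all genes, with medians of 0.03 and 0.02. The gene that fell was Cnot7, a catalytic deadenylase of the CCR4-NOT complex that GW182 proteins recruit. Cnot7 had 626 reads (15.5 CPM) with hsa-miR-199a-3p and 1430 (40.5 CPM) with hsa-miR-590-3p, against 1646 (49.2 CPM) with cel-miR-67 and 1299 (42.7 CPM) in mock. The hsa-miR-199a-3p library lay far below the other 3. Its log2 ratios there were -1.66 and -1.46, against -0.28 and -0.08 with hsa-miR-590-3p.

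**Figure D4:**
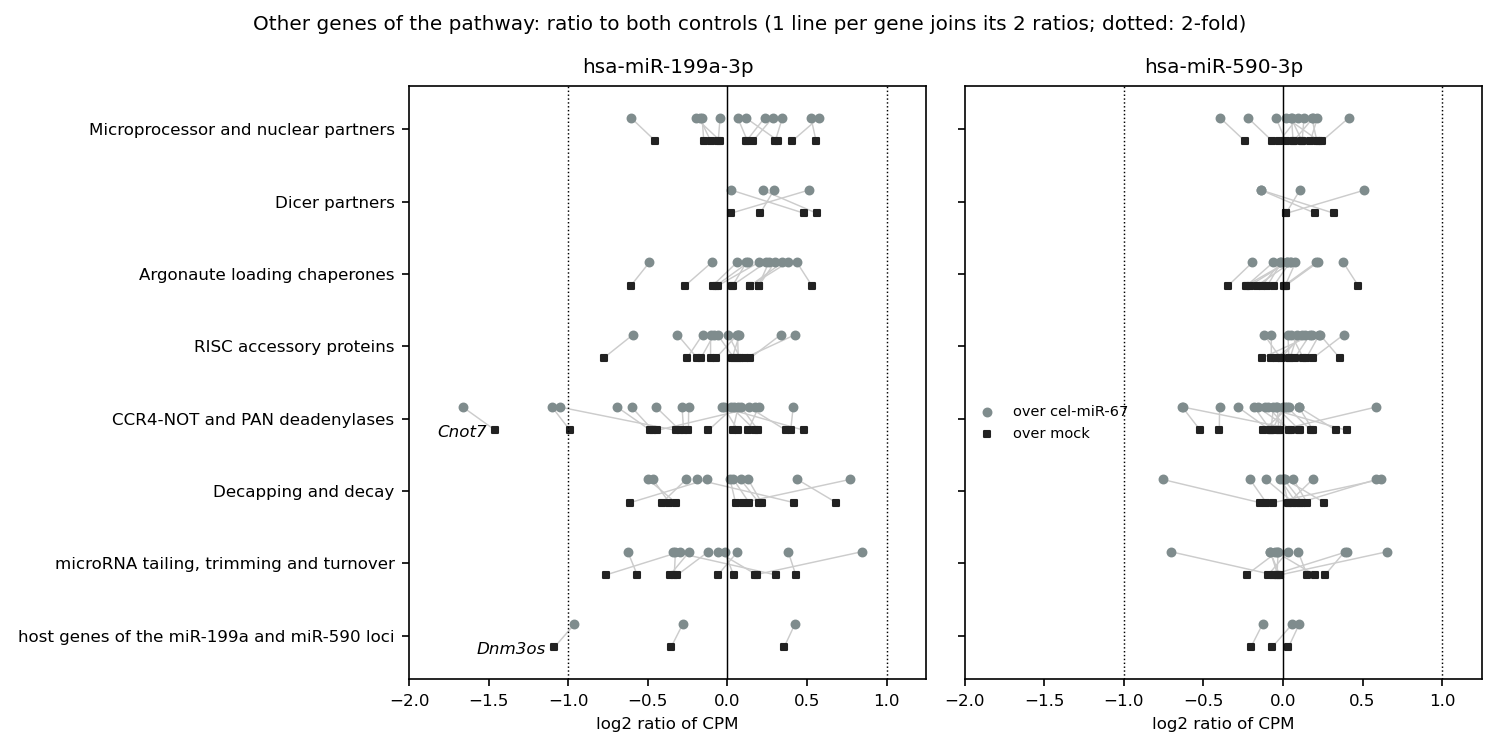
Log2 ratios of CPM (horizontal axis) of the measured genes of 8 other pathway lists with hsa-miR-199a-3p (left) and hsa-miR-590-3p (right), over cel-miR-67 (circles) and mock (squares), a line joining the ratios of a gene; dotted lines mark 2-fold. With hsa-miR-199a-3p Cnot7 lies beyond 2-fold on both ratios, Cnot6 (-1.10) and Btg2 (-1.05) on the ratio to cel-miR-67 alone and Dnm3os on the ratio to mock alone.

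Other deadenylase genes of the CCR4-NOT and PAN list, with 6 of 18 above and 8 below both controls with hsa-miR-199a-3p, included another catalytic subunit. Cnot6 stood at -1.10 and -0.99 with hsa-miR-199a-3p, on 32.3 CPM, the controls being at 69.3 and 64.1 CPM, just short of the criterion, and at -0.63 and -0.52 with hsa-miR-590-3p. Btg2, which links deadenylase to its targets, stood at -1.05 and -0.33, but the controls differed by 0.73. Tob1, a related adaptor, stood at -0.24 and -0.25 with hsa-miR-199a-3p and at -0.40 and -0.40 with hsa-miR-590-3p. Cnot9 stood at 0.13 and 0.37 with hsa-miR-199a-3p and at 0.10 and 0.33 with hsa-miR-590-3p. The most abundant gene of the list, Pabpc1, the poly(A)-binding protein, stood at 0.41 and 0.40 with hsa-miR-199a-3p.

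Of 12 genes of the Microprocessor and its nuclear partners, 7 lay above and 5 below both controls with hsa-miR-199a-3p. Drosha, the nuclease that works with Dgcr8, stood at -0.20 and -0.04 there and at -0.40 and -0.24 with hsa-miR-590-3p. It has 2 records, and at most 2.09% of its reads were placed uniquely, so values that rest on Drosha are less certain. Dgcr8 per Drosha, per length, was 1.44 (1.35 to 1.54) with hsa-miR-199a-3p and 1.50 (1.40 to 1.62) with hsa-miR-590-3p, against 1.07 (0.993 to 1.15) with cel-miR-67 and 1.21 (1.12 to 1.31) in mock, so both mimics lay above both controls. The helicase gene Ddx5 stood at -0.61 and -0.45 with hsa-miR-199a-3p, while Khsrp, a binder of hairpin loops, stood at 0.58 and 0.41 and Srrt at 0.52 and 0.56. All 4 Dicer partners lay above both controls with hsa-miR-199a-3p, as did 40.2% of all genes. Tarbp2, the double-stranded RNA-binding cofactor of Dicer, stood at 0.22 and 0.56, Prkra, a similar cofactor, at 0.29 and 0.21, and the adenosine deaminases Adar at 0.51 and 0.02 and Adarb1 at 0.02 and 0.48, where the controls differed by about as much.

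Chaperones that help to load Argonaute had 7 of 12 genes above and 2 below both controls with hsa-miR-199a-3p. The paralogues of the HSP90 chaperone lay on opposite sides. Hsp90aa1 stood at -0.49 and -0.61, on 347 CPM against 487 and 528 CPM, and Hsp90ab1 at 0.38 and 0.14, on 2056 CPM against 1581 and 1860 CPM. Fkbp5, a co-chaperone, stood at 0.44 and 0.53 with hsa-miR-199a-3p and at 0.38 and 0.47 with hsa-miR-590-3p. Hspa8, the most abundant of the list, stood at 0.20 and -0.06 with hsa-miR-199a-3p, and Hspa4 at -0.10 and -0.27. Dnaja2, a DNAJ co-chaperone, stood at -0.19 and -0.34 with hsa-miR-590-3p. Among accessory proteins of the silencing complex, 5 of 12 lay above and 5 below both controls with hsa-miR-199a-3p. Fxr1, an RNA-binding protein of the fragile X family, stood at -0.59 and -0.78 and its relative Fmr1 at -0.31 and -0.19, while Fmr1 stood at 0.23 and 0.36 with hsa-miR-590-3p. Snd1, a nuclease of the complex, stood at 0.42 and 0.11 with hsa-miR-199a-3p, and the helicase gene Mov10 at 0.33 and 0.14. Ajuba, a LIM-domain protein, stood at -0.09 and -0.17 there and at 0.23 and 0.15 with hsa-miR-590-3p.

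In the decapping and decay list 6 of 11 genes lay above and 4 below both controls with hsa-miR-199a-3p. Dcp2, the decapping enzyme, stood at -0.13 and -0.61, Ddx6, a helicase that binds the deadenylase complex, at -0.47 and -0.37, Edc3, an enhancer of decapping, at 0.44 and 0.68 and Lsm14a at 0.77 and 0.09. With hsa-miR-590-3p Dcp2 stood at 0.59 and 0.11 and Dcp1b, a decapping cofactor with 79 to 140 reads per library, at -0.76 and -0.15. The controls themselves, cel-miR-67 over mock, differed by -0.67 for Lsm14a, -0.48 for Dcp2 and 0.61 for Dcp1b. Genes of microRNA tailing, trimming and turnover had 2 of 11 above and 5 below both controls under each human mimic. Tut4, which adds uridines to hairpin and microRNA ends, stood at -0.63 and -0.57 with hsa-miR-199a-3p and at -0.08 and -0.02 with hsa-miR-590-3p. Pnpt1, a mitochondrial exonuclease, stood at -0.30 and -0.76 and Tsn, translin, at 0.84 and 0.17 with hsa-miR-199a-3p, where the controls differed by -0.47 and -0.67. The exonuclease gene Eri1 stood at 0.39 and 0.26 and Parn, a poly(A) ribonuclease, at -0.04 and -0.23 with hsa-miR-590-3p. Zswim8, which acts in target-directed microRNA decay, was the most abundant and stood at -0.06 and 0.18 with hsa-miR-199a-3p and at -0.05 and 0.20 with hsa-miR-590-3p. Tsnax stood at -0.34 and 0.30 with hsa-miR-199a-3p and at -0.70 and -0.06 with hsa-miR-590-3p. These values are uncertain, since none of its reads was placed uniquely in any library. The same was true of Adarb1, which has 4 records. Unique reads were at most 0.58% for Ddx6, 1.06% for Adar, 1.85% for Srrt, 1.97% for Mov10 and 7.29% for Fxr1, with 3 records each. Whether their reads were shared within the gene or with other genes is not known, so these ratios are less certain too. None of the 7 PIWI-branch genes reached 1 CPM, and they had 0 to 34 reads per library. Lin28a, the inhibitor of let-7 processing, had 0 reads in all 4 libraries, which allows up to 0.0745 CPM with hsa-miR-199a-3p, 0.0849 CPM with hsa-miR-590-3p, 0.0897 CPM with cel-miR-67 and 0.0987 CPM in mock, taking 3 reads as the limit.

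Genes that span the endogenous loci of the mimicked microRNAs were also measured. In the GRCm38.p6 table the hairpin of Mir199a-2 lies within the span of Dnm3os, a noncoding RNA antisense to Dnm3. That of Mir199a-1 lies within the span of Dnm2. Spans were matched by position and not by strand, so reads of Dnm2 need not come from RNA that carries the hairpin. The hairpins are shown because the same mature sequence, in capitals, is produced from both.
Mir199a-2, chr1:162217814-162217923, plus strand: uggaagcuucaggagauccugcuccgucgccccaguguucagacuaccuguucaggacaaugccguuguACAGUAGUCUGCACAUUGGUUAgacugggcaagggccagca
Mir199a-1, chr9:21496495-21496564, minus strand: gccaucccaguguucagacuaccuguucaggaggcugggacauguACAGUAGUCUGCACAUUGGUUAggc
Dnm3os had 228 reads (5.66 CPM) with hsa-miR-199a-3p and 406 (11.5 CPM) with hsa-miR-590-3p, against 369 (11.0 CPM) with cel-miR-67 and 366 (12.0 CPM) in mock. The level with hsa-miR-199a-3p was lower than in the other 3 libraries, which were alike. Its log2 ratios were -0.96 and -1.09, or 0.513-fold (0.433 to 0.607) and 0.470-fold (0.397 to 0.556), so it missed the criterion by the ratio to cel-miR-67. Dnm2, a dynamin, stood at -0.28 and -0.35, and Eif4h, known in human to host the miR-590 hairpin, at 0.42 and 0.36 with hsa-miR-199a-3p and at 0.10 and 0.03 with hsa-miR-590-3p. Whether reads were counted by strand is not stated, and without strand those of Dnm3os and Dnm3 cannot be told apart where the genes overlap. Dnm3 itself had at most 25 reads in a library.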

How the data were processed

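RNA sequencing libraries of mimic- and mock-transfected cells were grouped by the treatment in the labels. For each RefSeq transcript record the deposited files hold its length, whole-number counts (all reads, and those placed uniquely) and the authors' RPKM, given again as expression values, per the file headers. Total counts include reads shared with other records. CASAVA 1.8 and mm8 are named in the submitters' processing notes without a role, and the sources used here do not give the mapper. TruSeq preparation was used, per the labels' protocols.

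Records were named by accession from a RefSeq table (27926 of 36065 matched) or else by the file, and summed to 27267 genes. TMM factors came from edgeR 4.0.16 and size factors for an alternative from DESeq2 1.42.0 (R 4.3.3), with no test, since 0 residual degrees of freedom remain. Log2 ratios used a prior count of 0.5 and the 13502 genes averaging 1 CPM or more. A fold and its exact conditional binomial interval use CPM without the prior. Level intervals are exact Poisson. The procedure was also run on simulated counts with counting error only and planted changes larger than the criterion. Such a run cannot speak to spread between cultures or to changes near 2-fold. Python 3.11.15, numpy 2.4.6, pandas 2.3.3, scipy 1.17.1 and matplotlib 3.10.9 were used. Per length means per kilobase of the longest record.

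Members and lists were chosen with earlier results of these data known. Named genes were all members, and per list those meeting the criterion, up to 3 with the largest mean ratio on one side of both controls under each mimic, the most abundant, and the 3 nearest patterns to a called member. Neighbours on chromosome 4 were added later. Alternatives were other scalings, unique reads, a prior count of 5, other filters, single records, the authors' RPKM and each control alone or their mean.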

Additional observations from a re-analysis of the deposited data

Results flagged for a closer look

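A set of 4 of the 10 genes lay on opposite sides of both controls under the human mimics, as did 19.5% of all 13502 measured genes. The difference was not tested, because each condition has 1 library. Their log2 ratios of hsa-miR-199a-3p over hsa-miR-590-3p were -1.90 for Ago4, -0.93 for Ago1, 0.48 for Ago2 and -0.31 for Tnrc6a. For Ago2 the side taken by hsa-miR-590-3p rests on a log2 ratio of -0.02 to mock, which was 0.08 with total counts. For Tnrc6a the side taken by hsa-miR-199a-3p rests on -0.08 against mock, which was 0.03 with total counts. For these 2 genes opposite directions therefore depend on the scaling.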

How the results depend on the processing

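Seed matches of the mimics in the 10 genes were not counted, as transcript sequences were not used here. No paired analysis was possible because each condition has 1 library, and none could be left out for the same reason. The calls were the same under the alternatives run for each: Ago4 remained the only one of the 10 genes called with hsa-miR-199a-3p in 11 alternatives, and none was called with hsa-miR-590-3p. The count of genes below both controls with hsa-miR-590-3p, 3, was 2 with total counts, the authors' RPKM or unique reads. The count above both with hsa-miR-590-3p, 4, was 5 with total counts or the authors' RPKM. Against a single reference the criterion is looser, since a gene need only lie below or above that reference. By it 5 genes lay below and 5 above cel-miR-67 alone with hsa-miR-590-3p. Against mock alone or the mean of both controls, 4 lay below and 6 above. Shares of all genes by this looser criterion are not given. The median log2 ratio of all genes with hsa-miR-590-3p was 0.00 against cel-miR-67 and -0.01 against mock. Over 6 alternatives the log2 ratio of Ago4 with hsa-miR-199a-3p ran from -1.25 to -1.15 against cel-miR-67 and from -1.40 to -1.28 against mock. Scaling by total counts moved the median of all genes with hsa-miR-199a-3p to 0.09 against cel-miR-67 and 0.10 against mock, and with it 4 of 60 ratios of the 10 genes changed sign. The authors' RPKM changed the same number, uniquely placed reads 2, single records 1, and DESeq2 size factors and the larger prior count 0. Ago4, with 124 reads in its lowest library, has the widest counting intervals.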
